A study of Mus musculus with 10 samples.

Results

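Hepatocytes, the main cells of the liver, make most of the proteins dissolved in blood plasma, and their genes were followed here in gallbladders and cystic ducts dissected from mouse embryos. The set was a fixed list of 42 genes: carrier and transport proteins, apolipoproteins, coagulation and kinin proteins, protease inhibitors, metabolic enzymes, and the trio Hnf4a, Lect2 and Cfi. A gene was read by a probe set, a group of short oligonucleotides on an Affymetrix array, that the platform table assigns to that gene alone, and 41 of the 42 had one. Serpina1a was read only by a probe set shared with Serpina1d. All 41 passed the filter on dim signals, and they stand among 14696 genes tested in all.

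The gallbladder and the cystic duct, the tube that links it to the bile duct, bud from the same stretch of foregut endoderm as the liver and lie against it. In the fetus, hepatocytes already secrete albumin, alpha-fetoprotein, lipoproteins and clotting factors under a network of transcription factors that includes Hnf4a, the HNF1 proteins and the C/EBP proteins, while the fetal liver also makes red blood cells. Transcripts of plasma proteins are therefore commonly read as a gauge of hepatocyte RNA in a dissected biliary tissue.

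The 10 samples were taken at 15 days post coitum (dpc) and formed 5 groups of 2 biological replicates. ICR, an outbred stock, gave gallbladders of wild type and of Sox17+/- embryos and cystic ducts of wild type embryos only, each with replicates 1 and 2. C57BL/6 (B6), an inbred strain, gave wild type and Sox17+/- gallbladder, each with replicates 3 and 4. Sox17 encodes an endodermal transcription factor, and Sox17+/- embryos have 1 altered copy; the labels do not describe the allele, and they do not say whether a sample is 1 embryo or a pool. Because the labels name no litter or culture, p-values measure the spread between these samples. Values are log2 signals after quantile normalization, so a difference of 1 is a doubling, and "called" means a Benjamini-Hochberg adjusted p under 0.05 across all genes tested in limma.

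Replicates correlated at r = 0.966 to 0.996 in the gallbladder groups but at 0.898 in cystic duct, where 3565 genes lay more than 1 unit apart between the replicates, against 609 in ICR wild type gallbladder. Sox17 itself was 9.52 and 9.24 in ICR wild type gallbladder against 7.65 and 7.90 in Sox17+/-. In B6 it was 9.29 and 9.04 against 8.03 and 7.91, so no gallbladder went against its label. The wild type cystic ducts read 8.28 and 7.63, lower than ICR wild type gallbladder (-1.43 ± 0.24, limma adjusted p = 0.00867). Their label was therefore not checked by Sox17. The biliary epithelial marker Epcam was 11.10 to 12.12 in all 10 samples, but Krt8, a keratin of simple epithelia on the same list, was 8.20 and 10.77 in ICR wild type gallbladder and 11.33 to 11.99 in the other 8 samples; the smooth muscle gene Acta2 was 13.64 to 14.13 in gallbladder and 11.95 and 12.58 in cystic duct.

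Hepatocyte transcripts were detected in every gallbladder and were highest in cystic duct. The median log2 signal of the 41 genes was 8.36 and 7.73 in ICR wild type gallbladder, 9.81 and 9.23 in ICR Sox17+/- gallbladder, 9.34 and 8.72 in B6 wild type, 9.36 and 9.29 in B6 Sox17+/-, and 12.12 and 11.47 in cystic duct. Both cystic ducts were above all 8 gallbladders, and both ICR wild type gallbladders were below the other 6. Of the 41 genes, 35 were highest in cystic duct replicate 1, 5 in replicate 2 and Alb equally in both, while 27 were lowest in ICR wild type gallbladder replicate 2 and 8 in replicate 1. In bulk tissue, fewer hepatocytes and less of these RNAs per cell cannot be told apart. The median of all genes tested was 7.63 to 7.74, a range that quantile normalization keeps narrow. As deposited, sample medians ran from 5.51 to 6.07.

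**Figure D1:**
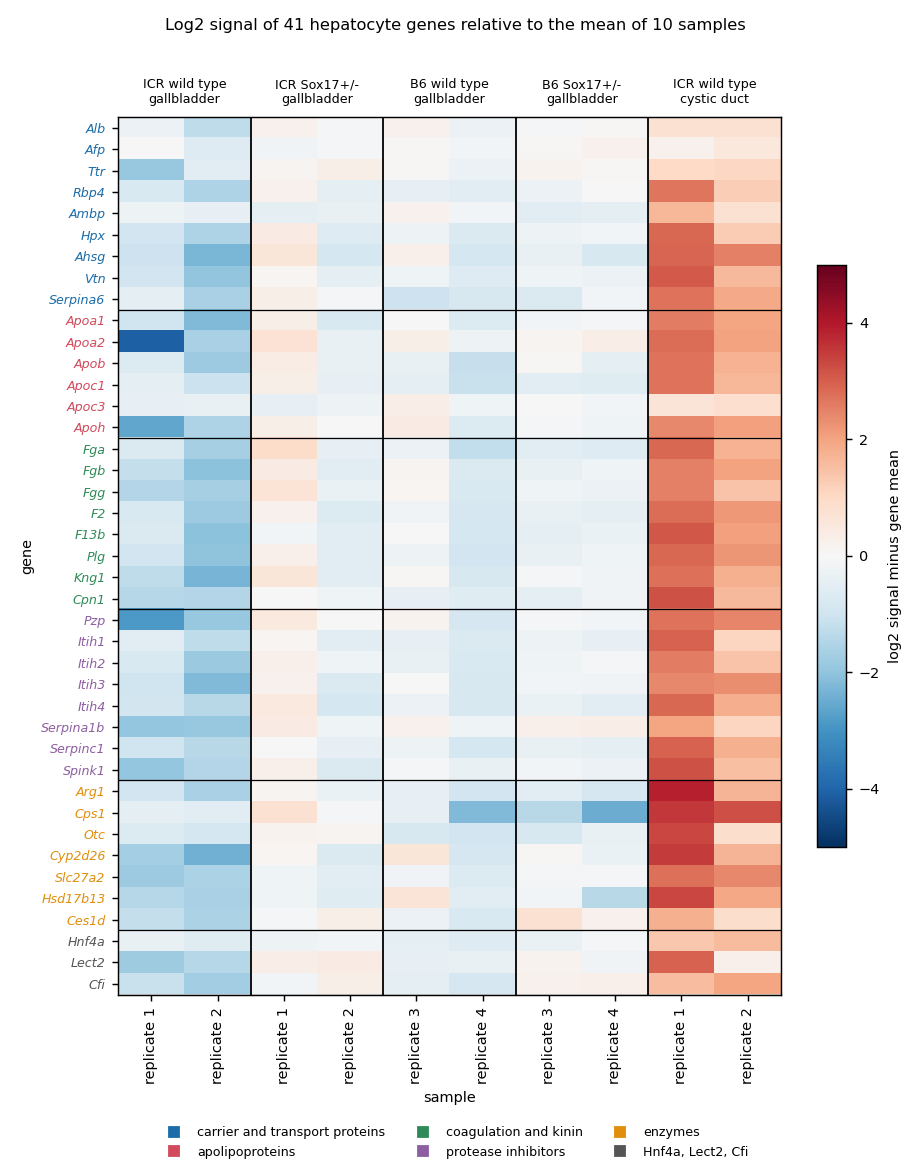
Log2 signal of each of the 41 genes (rows, label colour by class) in each of the 10 samples (columns), as the difference from that gene's mean over the 10 samples; red is above and blue below the mean. The cystic duct columns are red for all 41 genes, and all 41 are below their means in both ICR wild type gallbladder columns, with Apoa2, Apoh and Pzp darkest in replicate 1.

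The classes gave nearly the same reading of each array. After each gene was centred on its own mean over the 10 samples, the class medians in ICR wild type gallbladder replicate 1 lay between -0.77 (carriers) and -1.21 (enzymes), and in replicate 2 between -1.42 (Hnf4a, Lect2 and Cfi) and -1.93 (coagulation and kinin). The ICR Sox17+/- gallbladders gave -0.15 to 0.32 and -0.51 to 0.30. In B6 the ranges were -0.45 to 0.13 and -0.83 to -0.58 in wild type, and -0.38 to 0.16 and -0.37 to -0.09 in Sox17+/-. Within a gallbladder the classes therefore spanned less than 1 unit. They were farthest apart in cystic duct replicate 1, where enzymes stood at 3.34, coagulation and kinin at 2.83, inhibitors at 2.79, carriers at 2.66, apolipoproteins at 2.64 and the trio at 1.56. In cystic duct replicate 2 the span was narrower, from 1.23 for carriers to 1.90 for coagulation and kinin.

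**Figure D2:**
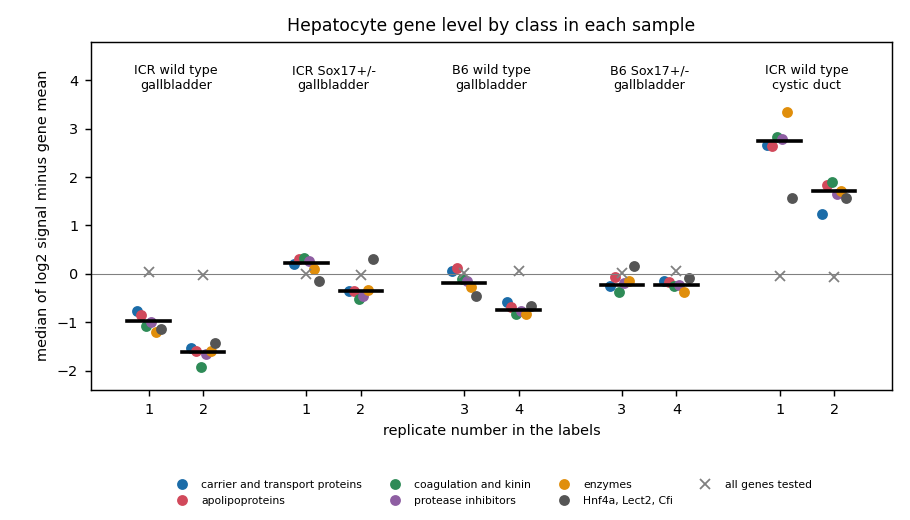
Median of log2 signal minus gene mean for each class of hepatocyte genes (coloured points), for all 41 genes (black bars) and for all genes tested (grey crosses), by sample. Quantile normalization holds all-gene medians near 0. The 41-gene bar runs from -1.62 in ICR wild type gallbladder replicate 2 to 2.75 in cystic duct replicate 1.

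Single genes followed this common profile to different degrees. Over the 10 samples, Pearson's r between a gene and the median of the other 40 ran from 0.73 for Afp to 1.00 for Vtn, as a description of samples that share groups. Vtn encodes vitronectin, an adhesive plasma protein, and its values were 8.48 and 7.50 in ICR wild type gallbladder, 9.56 and 8.99 in ICR Sox17+/-, 9.24 and 8.79 in B6 wild type, 9.22 and 9.15 in B6 Sox17+/-, and 12.52 and 11.09 in cystic duct. The 8 coagulation and kinin genes all had r of 0.97 or more. Besides Afp, the loosest fits were Ttr (0.76), Apoa2 and Cps1 (both 0.82) and Apoc3 (0.84).

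The proximal promoters of the list were read for binding motifs of hepatocyte regulators. The list was fixed as hepatocyte genes, so the counts describe that choice, and their part in the common profile was not tested. RefSeq promoters (build GRCm38.p6) were in the table for 31 of the 42 genes, and the 250 bases before each annotated start were searched on both strands. The HNF1 motif GTTAAT (or ATTAAC), only part of a full HNF1 site, occurred in 13 of the 31 promoters, 41.9%. Of all 27025 promoters in the table, 6.52% held it. The 13 include both Serpina1b and Serpina1a, and the latter had no probe set of its own. The C/EBP core TTGCNNAA occurred in 9 of 31, 29%, against 9.55%. The HNF4 core CAAAGTNCA occurred in 1 of 31, Cyp2d26, or 3.23% against 1.21%, and the TATA box TATAAA in 5 of 31, 16.1% against 13%. No match of one motif overlapped a match of another in these 31 promoters. A match describes letters in this window and not binding. The 120 bases before the start are shown for 8 genes with an HNF1 motif, drawn from carriers, inhibitors and coagulation genes, and for Apoa1, which has none of the 4 motifs in its 250 bases; capitals mark every match to the 4 motifs.
Alb, chr5:90460750-90460869, plus strand: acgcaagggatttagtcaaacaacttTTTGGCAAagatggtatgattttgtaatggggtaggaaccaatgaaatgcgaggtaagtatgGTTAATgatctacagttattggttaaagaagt
Afp, chr5:90490594-90490713, plus strand: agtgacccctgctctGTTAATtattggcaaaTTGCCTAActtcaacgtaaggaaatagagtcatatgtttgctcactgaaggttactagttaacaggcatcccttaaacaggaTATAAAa
Serpina1b, chr12:103738190-103738309, minus strand: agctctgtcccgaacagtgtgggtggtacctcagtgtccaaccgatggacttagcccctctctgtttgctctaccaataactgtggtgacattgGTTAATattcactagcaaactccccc
Fga, chr3:83026033-83026152, plus strand: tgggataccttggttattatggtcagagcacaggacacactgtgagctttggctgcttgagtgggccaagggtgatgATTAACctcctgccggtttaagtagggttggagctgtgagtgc
Fgb, chr3:83049864-83049983, minus strand: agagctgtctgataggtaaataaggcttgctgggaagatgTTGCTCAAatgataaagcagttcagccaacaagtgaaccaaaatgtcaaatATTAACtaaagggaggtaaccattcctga
F13b, chr1:139501587-139501706, plus strand: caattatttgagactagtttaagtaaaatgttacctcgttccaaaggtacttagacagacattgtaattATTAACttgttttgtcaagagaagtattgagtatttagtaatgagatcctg
Cpn1, chr19:43986521-43986640, minus strand: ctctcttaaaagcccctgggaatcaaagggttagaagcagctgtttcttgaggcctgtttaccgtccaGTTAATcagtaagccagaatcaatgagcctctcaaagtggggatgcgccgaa
Itih1, chr14:30943290-30943409, minus strand: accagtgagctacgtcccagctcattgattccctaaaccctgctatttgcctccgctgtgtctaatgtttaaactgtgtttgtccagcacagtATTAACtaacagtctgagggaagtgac
Apoa1, chr9:46228510-46228629, plus strand: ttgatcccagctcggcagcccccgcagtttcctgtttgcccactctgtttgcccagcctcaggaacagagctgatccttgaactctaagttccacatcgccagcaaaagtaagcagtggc
The HNF1 motif lies at bases -32 to -27 from the start in Alb, -26 to -21 in Serpina1b, -29 to -24 in Fgb, -27 to -22 in Itih1, -43 to -38 in Fga, -51 to -46 in F13b and -52 to -47 in Cpn1, and farther out, at -105 to -100, in Afp. All 41 genes were higher in cystic duct, so direction cannot separate genes with a match from those without. Of genes that hold the motif, Fgb was 3.91 log2 units above gallbladder, Alb 1.56 and Afp 0.73. Apoa1, which does not hold it, was 3.86 above.

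In ICR wild type embryos, 40 of the 41 hepatocyte genes were called higher in cystic duct than in gallbladder and none lower, where 5.73% of all genes tested were called higher and 8.61% lower. The median difference was 3.53 log2 units, an 11.6-fold higher signal, against -0.03 for all genes. In all 41 the cystic duct pair lay above the gallbladder pair without overlap (21.7% of all genes did). By class the median difference was 3.09 for carriers, 3.66 for apolipoproteins, 3.88 for coagulation and kinin genes, 3.52 for inhibitors, 4.09 for enzymes and 3.20 for the trio. These calls rest on a spread shared with the gallbladder groups: with only the 4 ICR wild type samples in the fit, or with array weights, limma called 0 of the 41 genes and 0 of all genes, while 41 and 37 of the 41 had an unadjusted p under 0.05 (14.2% and 12.7% of all genes, either direction).

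**Figure D3:**
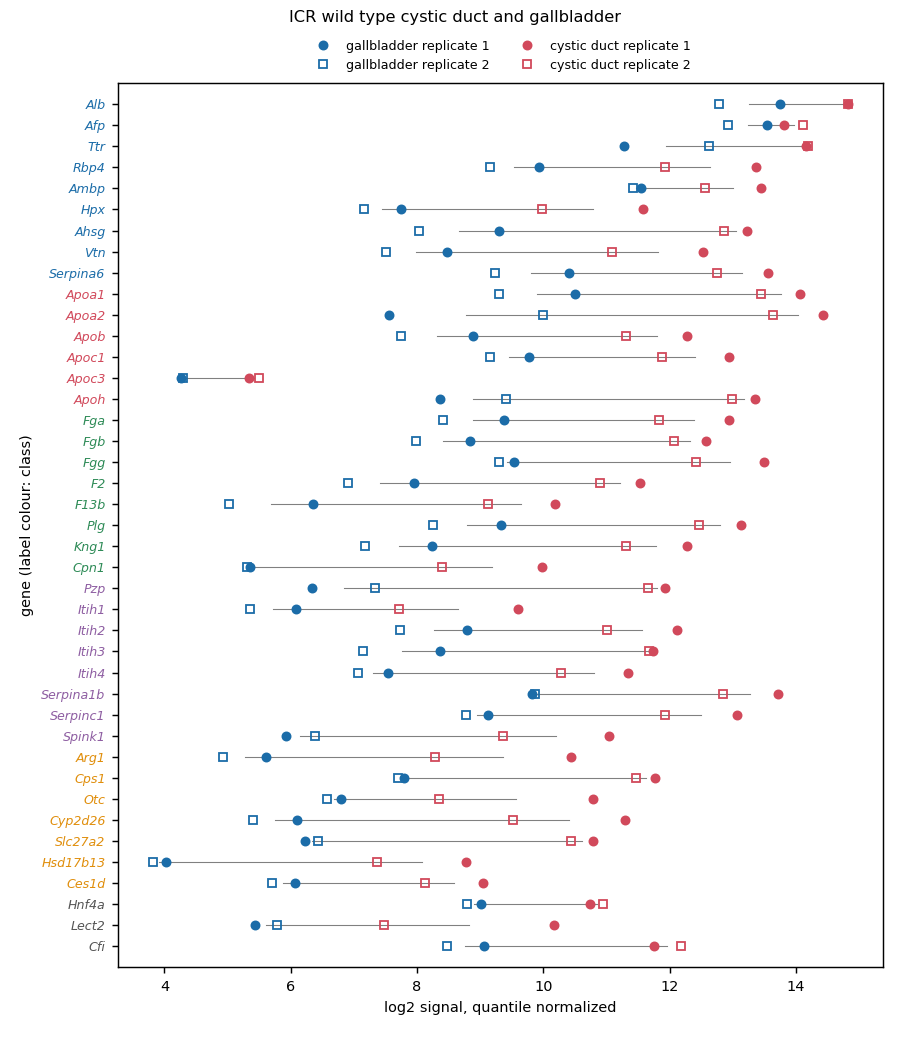
Log2 signal of each of the 41 genes in the 2 wild type gallbladders (blue) and the 2 wild type cystic ducts (red) of ICR, with a grey line between group means; filled circles are replicate 1 and open squares replicate 2. For every gene both red points lie to the right of both blue points, and Alb, Afp, Ambp and Apoc3 have short lines.

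Among the carriers, the fetuin Ahsg differed most. It was 9.29 and 8.03 in gallbladder and 13.22 and 12.85 in cystic duct, a difference of 4.37 ± 0.59 (SE; limma adjusted p = 0.00437). The corticosteroid carrier Serpina6 was 10.40 and 9.23 against 13.56 and 12.74 (3.34 ± 0.41; limma adjusted p = 0.00326), and Vtn, given above, rose by 3.81 ± 0.48 (limma adjusted p = 0.00365). The ranges of the cystic duct and gallbladder pairs were apart by more than 2 units in all of these. The retinol carrier Rbp4 was 9.93 and 9.16 against 13.36 and 11.92, a rise of 3.09. The haem carrier Hpx was 7.75 and 7.16 against 11.58 and 9.98, a rise of 3.33. The carriers that were bright in gallbladder moved less. Albumin, the main plasma protein, was 13.75 and 12.78 in gallbladder and 14.82 in both cystic ducts (1.56 ± 0.30; limma adjusted p = 0.0147). Alpha-fetoprotein, its fetal relative, was 13.54 and 12.92 against 13.80 and 14.11, a difference of 0.73 ± 0.20 that missed the threshold (limma adjusted p = 0.0517) and reached 1.13 when its 5 probe sets were averaged. Ttr, the transthyretin that carries thyroid hormone, was 11.27 and 12.62 against 14.16 and 14.18, a rise of 2.23 ± 0.36 (limma adjusted p = 0.00839). On its other probe sets the rise was smaller, 1.40, 0.87 and 0.69, and with all of them averaged it was 1.30. Ambp, the precursor of alpha-1-microglobulin and bikunin, was 11.54 and 11.41 against 13.45 and 12.56, a rise of 1.53 ± 0.26 (limma adjusted p = 0.00945). The 4 genes with a gallbladder signal of 11 or more (Alb, Afp, Ttr and Ambp) differed by 0.73 to 2.23, and the other 37 by 1.14 to 5.26; this split was chosen after the values were seen. The highest deposited signal on any array was 15.15, and the part that this upper end plays in the small differences was not tested.

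All 6 apolipoproteins, which package lipid for transport in plasma, were called higher in cystic duct. Apoa2, a component of high-density lipoprotein, had the largest difference of all 14696 genes, 5.26 ± 0.72, or 38.2-fold (limma adjusted p = 0.00466). Its gallbladder values were far apart, 7.55 and 10.00, against 14.42 and 13.64 in cystic duct, and the difference was 4.03 without gallbladder replicate 1 and 6.48 without replicate 2. Apoa1, the main protein of that particle, was steadier, at 10.50 and 9.29 against 14.06 and 13.45 (3.86 ± 0.47; limma adjusted p = 0.00325). Apoh, a phospholipid-binding plasma protein, was 8.36 and 9.40 against 13.35 and 12.99 (4.28 ± 0.42; limma adjusted p = 0.00201). On the probe sets used, every cystic duct value of these 3 genes was more than 2 units above every gallbladder value. A second, dim probe set of Apoh rose by 0.54. Apob, the structural protein of very low density lipoprotein, was 8.89 and 7.75 against 12.28 and 11.30, a rise of 3.47. Its second, dimmer probe set rose by 1.28. Apoc1, a small exchangeable apolipoprotein, was 9.77 and 9.16 against 12.93 and 11.87, a rise of 2.93. Apoc3 was dim on its probe set, 4.27 and 4.29 against 5.34 and 5.50, and rose by 1.14; its mean over 10 samples, 4.68, was just above the filter at 4.47.

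On the probe sets used, the coagulation and kinin genes formed the tightest class. All 8 were called, with differences between 3.49 (Fga) and 4.07 (Kng1). The 3 fibrinogen chains assemble into 1 clotting protein. Fga was 9.38 and 8.41 in gallbladder and 12.94 and 11.83 in cystic duct, a rise of 3.49. Fgg was 9.53 and 9.30 against 13.49 and 12.41, a rise of 3.53. Fgb was 8.83 and 7.99 against 12.57 and 12.06 (3.91 ± 0.42; limma adjusted p = 0.00216). The 3 chains thus rose by similar amounts. Plasminogen (Plg), the precursor of the clot-dissolving protease plasmin, was 9.33 and 8.25 in gallbladder and 13.13 and 12.47 in cystic duct (4.00 ± 0.42; limma adjusted p = 0.00213). Prothrombin (F2), the precursor of thrombin, was 7.95 and 6.90 against 11.53 and 10.89, a rise of 3.79. Factor XIII, which crosslinks fibrin, has a B subunit whose gene F13b was 6.35 and 5.03 against 10.19 and 9.12, a rise of 3.96. The 2 kinin genes moved with the clotting genes. Kng1, the kininogen from which bradykinin is cut, was 8.24 and 7.18 against 12.27 and 11.30 (4.07 ± 0.53; limma adjusted p = 0.00393). Cpn1, the carboxypeptidase N subunit that inactivates kinins, was 5.36 and 5.30 against 9.97 and 8.39, a rise of 3.85. A second, dim probe set of Cpn1 rose by 0.50.

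All 8 measured protease inhibitors were called higher in cystic duct. Pzp, a broad inhibitor of the alpha-2-macroglobulin family, was 6.34 and 7.34 in gallbladder and 11.93 and 11.65 in cystic duct, a difference of 4.95 ± 0.40, or 30.8-fold (limma adjusted p = 0.00138). Serpina1b, an alpha-1-antitrypsin gene, was 9.82 and 9.86 against 13.71 and 12.84 (3.43 ± 0.30; limma adjusted p = 0.00166). Both probe sets of Serpina1b are of the type that can cross-hybridize, so its reading is uncertain between the near-identical Serpina1 copies; the shared probe set of Serpina1a and Serpina1d was 3.08 higher. Antithrombin (Serpinc1), which blocks thrombin, was 9.13 and 8.77 against 13.07 and 11.92, a rise of 3.54. Spink1, a trypsin inhibitor also made in the pancreas, was 5.92 and 6.38 against 11.04 and 9.36, a rise of 4.05. The remaining 4 were heavy chains of the inter-alpha-trypsin inhibitor family, which bind hyaluronan in the extracellular matrix. Itih1 was 6.08 and 5.36 against 9.59 and 7.72, a rise of 2.93, and Itih2, starting from 8.79 and 7.73, rose by 3.30. Itih3 was 8.36 and 7.15 against 11.74 and 11.67, a rise of 3.95, and Itih4 was 7.54 and 7.07 against 11.34 and 10.27, a rise of 3.50. The cystic duct replicates lay within 0.1 of each other for Itih3 but 1.87 apart for Itih1.

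The 7 enzymes had the highest class median and were also the least even between the cystic duct arrays. Slc27a2, which activates and imports fatty acids, was 6.22 and 6.43 in gallbladder and 10.78 and 10.44 in cystic duct (4.28 ± 0.24; limma adjusted p = 0.00138). Ces1d, a carboxylesterase, was 6.06 and 5.70 against 9.04 and 8.13 (2.70 ± 0.36; limma adjusted p = 0.00415). The urea cycle enzymes turn ammonia into urea. Cps1 was 7.80 and 7.70 against 11.77 and 11.47, a rise of 3.87. Arg1 was 5.61 and 4.93 against 10.44 and 8.28, a rise of 4.09. Otc was 6.79 and 6.57 against 10.79 and 8.34 and had the smallest rise of the class but Ces1d, 2.88 ± 0.65 (limma adjusted p = 0.0252). In each of the 3 the groups were apart, but Arg1 and Otc were more than 2 units lower in cystic duct replicate 2 than in replicate 1, and Cps1 was not. Cyp2d26, a cytochrome P450, was 6.10 and 5.40 against 11.29 and 9.51 (4.65 ± 0.66; limma adjusted p = 0.00511). Hsd17b13, a lipid droplet enzyme, was 4.03 and 3.82 against 8.78 and 7.37, a rise of 4.15. Both gallbladder values lie below the filter at 4.47, so the size of this difference rests on dim signals. A second probe set of Hsd17b13 rose by only 1.11.

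The remaining trio was also called. Hnf4a, the nuclear receptor that drives many hepatocyte genes and is also active in other endodermal epithelia, was 9.01 and 8.79 in gallbladder and 10.73 and 10.95 in cystic duct (1.94 ± 0.16; limma adjusted p = 0.00143). Its other probe sets, all dimmer, rose by 0.63 to 1.25. Complement factor I (Cfi) was 9.06 and 8.47 against 11.75 and 12.17 (3.20 ± 0.26; limma adjusted p = 0.00138). Lect2, a secreted hepatocyte protein, was 5.44 and 5.79 against 10.16 and 7.48 (3.21 ± 0.70; limma adjusted p = 0.0231). Hnf4a and Cfi were as high in cystic duct replicate 2 as in replicate 1, whereas Lect2 was 2.68 lower there.

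The cystic duct arrays were themselves unequal: 35 of the 41 genes were higher in replicate 1, 5 in replicate 2 and Alb was equal, with a median gap of 0.90. As deposited, replicate 2 had an interquartile range of 2.75 log2 units, against 3.46 to 3.85 in the other samples. Quantile normalization makes these ranges alike. With the values as deposited the median difference from gallbladder was 3.18, against 3.53. The part of this narrow range in the gap was not tested. The gap was widest for Lect2 (2.68), Otc (2.46) and Arg1 (2.16), and it was reversed for Cfi, Afp, Hnf4a, Apoc3 and Ttr. Without cystic duct replicate 1 the median difference from gallbladder was 3.00 and all 41 genes were called, and without replicate 2 it was 4.11 with 40 called; all genes called numbered 7539 and 4474 in those fits, against 2107 with all samples. Over the leave-one-out fits 36 to 41 genes were called. Otc was not called when either ICR wild type gallbladder or any 1 of the 4 B6 gallbladders was left out, Lect2 and Apoc3 when either ICR wild type gallbladder was, and Itih1 when ICR wild type gallbladder replicate 2 was.

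The genes were next compared between genotypes in gallbladder. In ICR, hepatocyte genes stood higher in Sox17+/- gallbladder, but limma called 0 of the 41 (0% of all genes were called higher and 0.0068% lower). An unadjusted p under 0.05 with a higher signal was seen for 27 of the 41, against 3.12% of all genes. With the values as deposited 17 had an unadjusted p under 0.05 (4.85% of all genes, either direction), and the median difference was 1.16. The count of 27 also fell without Sox17+/- replicate 1, where the median difference was 0.91, and without wild type replicate 2. The median difference was 1.30 (all genes -0.01), 40 of the 41 were above 0 (47.4% of all genes), 30 were above 1 (2.78% of all genes), and in 38 the groups did not overlap (17.9%). Ambp, at -0.10, was the gene below 0. Leaving out the ICR wild type gallbladder replicate 2, the sample lowest in these genes, brought the median to 0.82, and Apoa2, Apoh, Pzp and Ttr were then called among 374 genes in all. With only the 8 gallbladder samples in the fit, or without either cystic duct, Cpn1, Lect2 and Serpina1b were called; the gallbladder fit called 21 genes in all. Krt8 was also higher in Sox17+/-, at 2.30 ± 0.67 (limma adjusted p = 0.863). The 16 biliary epithelial genes it was listed with had a median of 0.09, with 9 above 0. Within wild type Krt8 was lower in replicate 1, where most of the 41 were higher. Its part in the result was not tested.

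Pzp and Serpina1b had the smallest adjusted p in ICR. Pzp was 6.34 and 7.34 in wild type against 9.70 and 9.23 in Sox17+/-, a difference of 2.62 ± 0.40 (limma adjusted p = 0.219). Serpina1b was 9.82 and 9.86 against 12.15 and 11.53 (2.00 ± 0.30; limma adjusted p = 0.219). In both genes the Sox17+/- pair lay more than 1 unit above the wild type pair, and neither passed the threshold.

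Apolipoproteins gave the widest range in the ICR genotype comparison, from 0.07 (Apoc3) to 3.03 (Apoa2). Apoa2 was 7.55 and 10.00 in wild type and 12.34 and 11.26 in Sox17+/- (3.03 ± 0.72; limma adjusted p = 0.718), and the difference was 1.80 without wild type replicate 1 and 4.25 without replicate 2. Apoh was 8.36 and 9.40 against 11.25 and 10.92 (2.20 ± 0.42; limma adjusted p = 0.421). Apoa1, with 4 probe sets, differed by 1.28 to 1.39 on each of them.

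The 8 coagulation and kinin genes lay between 1.04 (F13b) and 1.82 (Kng1), with a median of 1.39. Fgg was 9.53 and 9.30 in ICR wild type and 11.68 and 10.64 in Sox17+/- (1.74 ± 0.45; limma adjusted p = 0.761), and Fgb was 8.83 and 7.99 against 10.45 and 9.52 (1.58 ± 0.42; limma adjusted p = 0.803). Among the enzymes, with a median of 1.20, Slc27a2 was 6.22 and 6.43 against 7.82 and 7.44 (1.30 ± 0.24; limma adjusted p = 0.409) and Ces1d was 6.06 and 5.70 against 7.19 and 7.56 (1.49 ± 0.36; limma adjusted p = 0.728). The urea cycle enzymes Cps1, Otc and Arg1 differed by 0.84, 0.93 and 1.20.

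Carriers had the lowest class median, 1.14. Ttr was 11.27 and 12.62 in wild type and 13.28 and 13.46 in Sox17+/- (1.43 ± 0.36; limma adjusted p = 0.759). Albumin was 13.75 and 12.78 against 14.28 and 13.95 (0.85 ± 0.30; limma adjusted p = 0.890), and alpha-fetoprotein differed by 0.21 ± 0.20. Cfi was 9.06 and 8.47 against 10.04 and 10.49 (1.50 ± 0.26; limma adjusted p = 0.314), Lect2 was 5.44 and 5.79 against 7.55 and 7.62 (1.97 ± 0.70; limma adjusted p = 0.890), and Hnf4a differed by 0.30 ± 0.16.

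In B6 the same genes were close to level between genotypes. Limma called 0 of the 41 (0% of all genes higher and 0.0068% lower), and 2, Cfi and Ces1d, had an unadjusted p under 0.05 with a higher signal, against 0.728% of all genes. The median difference was 0.23 (all genes 0.00), 31 were above 0 (51.1% of all genes), and the groups did not overlap in 10 that were higher (20.3% of all genes) and in 1, Ambp, that was lower (20.6%). The count of non-overlapping higher genes is near the share among all genes. The sign of the median depended on 1 sample: without B6 wild type replicate 4 it was -0.08.

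Cfi was 9.74 and 9.36 in B6 wild type and 10.40 and 10.43 in Sox17+/- (0.87 ± 0.26; limma adjusted p = 1.00), and it was called with array weights, where 103 genes were called in all. Ces1d was 6.99 and 6.50 against 8.03 and 7.49 (1.01 ± 0.36; limma adjusted p = 1.00). Hnf4a was 8.90 and 8.72 against 9.04 and 9.29, a difference of 0.36 ± 0.16. At the other end, Hsd17b13 was 6.07 and 4.92 against 5.30 and 4.06 (-0.82 ± 0.59) and Cps1 was 7.85 and 6.05 against 6.85 and 5.76 (-0.64 ± 0.59), with overlapping groups in both. On its second probe set Hsd17b13 differed by -0.04. Ambp was 12.03 and 11.68 against 11.28 and 11.32 (-0.55 ± 0.26; limma adjusted p = 1.00). Alb, Apoa2 and Fgb differed by 0.04, 0.23 and -0.00.

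The other classes showed small B6 differences, all with a limma adjusted p of 1.00. Serpina6 was 9.83 and 10.07 in wild type against 10.14 and 10.71 in Sox17+/- (0.47 ± 0.41), and Apob was 9.20 and 8.44 against 9.62 and 9.14 (0.56 ± 0.49). Apoc1 was 9.76 and 9.11 against 9.71 and 9.64 (0.24 ± 0.40). The Apob and Apoc1 groups overlapped and those of Serpina6 did not. Among coagulation and kinin genes Plg was 10.02 and 9.33 against 9.90 and 10.05 (0.30 ± 0.42) and Kng1 was 9.59 and 8.71 against 9.46 and 9.32 (0.24 ± 0.53), both overlapping. Serpina1b was 11.98 and 11.53 against 12.01 and 12.07 (0.29 ± 0.30), and Itih2 was 9.18 and 8.82 against 9.36 and 9.52 (0.44 ± 0.43). Slc27a2 was 7.85 and 7.33 against 7.97 and 7.96 (0.37 ± 0.24). In these last 3 genes the Sox17+/- pair was above the wild type pair without overlap.

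**Figure D4:**
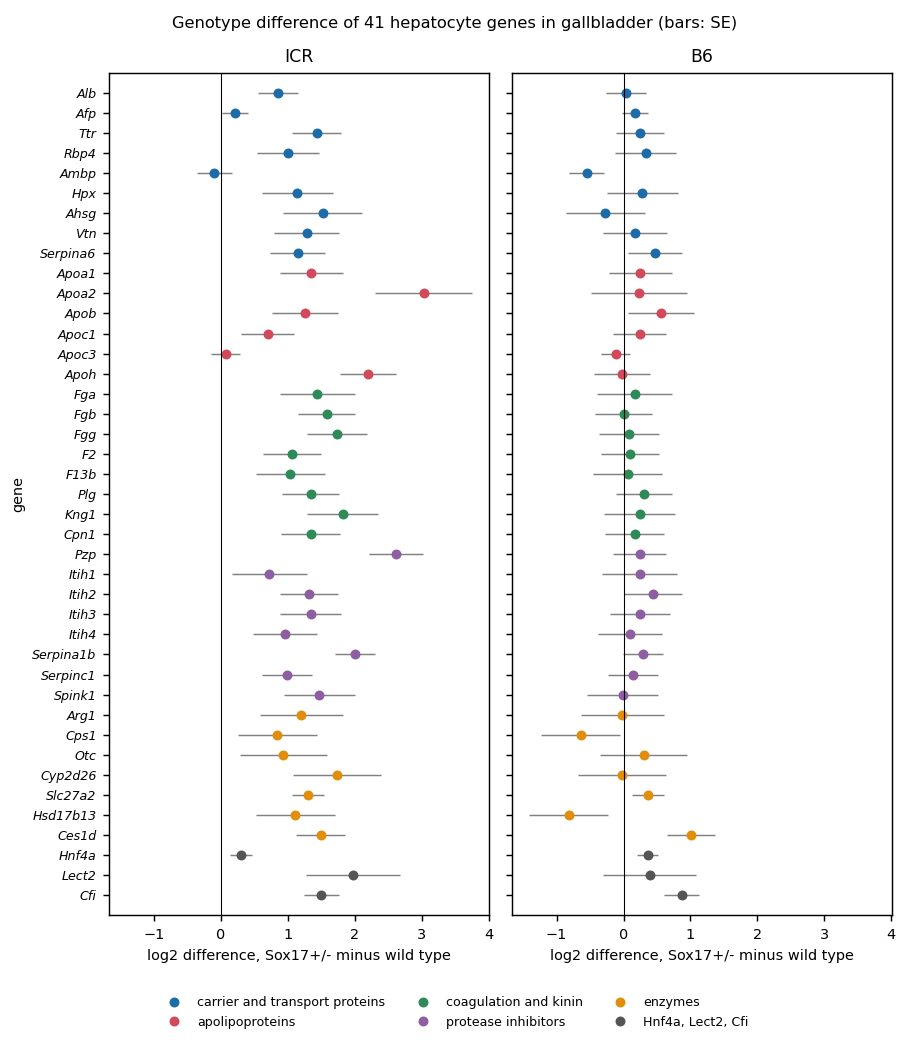
Sox17+/- minus wild type log2 difference in gallbladder (points, coloured by class, with bars of 1 SE) for each of the 41 genes in ICR (left) and B6 (right). In ICR 40 of the points lie right of 0 with a median of 1.30, and in B6 they cluster around a median of 0.23.

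Across both strains together, limma called 0 of the 41 genes (0.0204% of all genes were called higher and 0.034% lower). An unadjusted p under 0.05 was reached by 20, all higher, against 1.72% of all genes, 39 were above 0 (49.5%), and the median difference was 0.75. The median was 0.55 without ICR Sox17+/- replicate 1 or ICR wild type replicate 2, and 0.6 without B6 wild type replicate 4. The count of 20 fell in each of these fits. It also fell without B6 Sox17+/- replicate 3 or 4, where the median was 0.76 and 0.74. With the values as deposited 9 had an unadjusted p under 0.05 (3.22% of all genes, either direction), and the median was 0.67. Cfi had the smallest adjusted p, 0.117 in limma (1.18 ± 0.18), followed by Serpina1b at 0.222 (1.14 ± 0.22). With only the gallbladder samples, or with array weights, 5 were called, Ces1d, Cfi, Cpn1, Lect2 and Serpina1b, among 78 and 136 genes in all. The same 5 were called without either cystic duct, and Apoa2, Cfi, Pzp and Ttr without ICR wild type gallbladder replicate 2, among 280 genes in all. Ambp and Apoc3 were the 2 genes below 0, at -0.33 and -0.02.

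The difference between the strains in their genotype effect was tested directly. Limma called 0 of the 41 (0% of all genes in each direction), 7 had an unadjusted p under 0.05 with a smaller effect in B6 (0.558% of all genes), and the median of B6 minus ICR was -1.04 (all genes 0.02), with 1 of 41, Hnf4a, above 0 (53.1% of all genes). Pzp stood at -2.39 ± 0.56 and Serpina1b at -1.72 ± 0.43, both with a limma adjusted p of 1.00. Without ICR wild type replicate 2 the median was -0.62, and Apoa2, Pzp and Ttr were called among 268 genes in all.

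Between the strains, wild type gallbladder of B6 read higher than that of ICR for most of these genes, but limma called 0 of the 41 (0.0272% of all genes were called higher in B6 and 0.116% lower). The B6 pair lay above the ICR pair without overlap in 29 genes (34.2% of all genes), 17 had an unadjusted p under 0.05 with a higher signal in B6 (6.67%), 37 were above 0 (55.6%), and the median of B6 minus ICR was 0.86 (all genes 0.04). The median was 0.49 without ICR wild type replicate 2 and 0.57 without B6 wild type replicate 3, and the count of 17 fell in both fits. With the values as deposited 10 had an unadjusted p under 0.05 (8.78% of all genes, either direction), and the median was 0.69. Krt8 was 2.28 higher in B6, and its biliary epithelial list had a median of 0.19. Serpina1b was 11.98 and 11.53 in B6 against 9.82 and 9.86 in ICR (1.92 ± 0.30; limma adjusted p = 0.0702). Slc27a2 was 7.85 and 7.33 against 6.22 and 6.43 (1.26 ± 0.24; limma adjusted p = 0.0932), and Pzp differed by 2.05 ± 0.40 (limma adjusted p = 0.0940). With array weights 8 were called among 1195 genes in all, with the gallbladder samples alone 5 among 619, and without ICR wild type replicate 2 Apoa2, Apoh, Pzp and Ttr among 477. Cps1, the first enzyme of the urea cycle, was farthest below 0, at -0.80, although the strains overlapped. It was 7.85 and 6.05 in B6 against 7.80 and 7.70 in ICR, and 6.85 and 5.76 in B6 Sox17+/- against 9.01 and 8.16 in ICR Sox17+/-. ICR and B6 differ in sequence, and the effect of that on single probe sets was not tested. Between them, the ICR genotype, cystic duct and strain comparisons share the 2 ICR wild type gallbladders, the samples lowest in hepatocyte genes.

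Those 2 gallbladders did not agree on every gene. Replicate 1 was higher than replicate 2 for 32 of the 41, by a median of 0.59 over all 41, but 9 went the other way: Apoa2 by -2.44, Ttr by -1.35, Apoh by -1.04, Pzp (6.34 against 7.34), Spink1 by -0.46, Lect2 by -0.36, Slc27a2 by -0.21, Serpina1b by -0.04 and Apoc3 by -0.01. These include the genes with the largest ICR genotype differences, and the cause was not tested. For Ttr the gap was seen on 1 probe set of 4: the one that stood for the gene was 11.27 and 12.62, while the others were 11.95 and 12.01, 13.56 and 13.78, and 13.07 and 13.15. Their ICR genotype differences were 0.52, 0.29 and 0.03, against 1.43 on the one used. Apoh had a second, dim probe set on which replicate 1 was 0.78 higher and not lower, and whose ICR genotype difference was 0.40 against 2.20. Apoa2, Pzp and Spink1 each had a single probe set.

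Repeat probe sets otherwise agreed in direction where the difference was large, but not always in size. In cystic duct a second, dimmer probe set rose by 0.50 for Cpn1, 0.54 for Apoh and 1.28 for Apob. Those used rose by 3.85, 4.28 and 3.47. Repeat probe sets of Apoa1 (3.51 to 3.85), Vtn (3.83), Kng1 (3.57) and Serpina1b (3.40) were nearer to those used. The 41 genes had 65 probe sets of their own, with 13 genes on more than 1, and all 65 were higher in cystic duct, by 0.50 to 5.26. In the ICR genotype comparison 61 of 65 were above 0, and the exceptions were the probe set of Ambp and second probe sets of Cpn1, Apob and Otc.

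A wider list of other hepatocyte genes was also highest in cystic duct and lowest in ICR wild type gallbladder, with smaller median differences. Of 83 genes listed, 61 were tested. In cystic duct 40 were called higher (5.73% of all genes), with a median of 2.54. The fetal surface protein Gpc3 was the 1 called lower (-0.47, limma adjusted p = 0.0301), against 8.61% of all genes. The calls with the smallest p included Apoe at 2.00 ± 0.17, the betaine enzyme Bhmt at 3.33 ± 0.34, the glycogen synthase Gys2 at 2.47 ± 0.26 and Apoc2 at 3.40 ± 0.36. In the ICR genotype comparison the median was 0.58, with 56 of 61 above 0 (47.4% of all genes). Limma called 0, and 11 had an unadjusted p under 0.05 (5.28% of all genes, either direction). In B6 it was 0.05, with 0 called in limma and 0 at an unadjusted p under 0.05. By sample the median of the 61 was 6.48 and 6.08 in ICR wild type gallbladder, 7.20 and 6.77 in ICR Sox17+/-, 6.93 and 6.51 in B6 wild type, 6.69 and 6.76 in B6 Sox17+/-, and 9.84 and 8.15 in cystic duct.

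Markers of other cell types were read beside these genes. Erythroid genes, of which fetal liver is a main source, had a per-sample median of 7.74 and 6.96 in ICR wild type gallbladder, 8.51 and 7.72 in ICR Sox17+/-, 8.30 and 8.71 in B6 wild type, 8.57 and 9.44 in B6 Sox17+/-, and 10.95 and 9.60 in cystic duct. Of 15 tested, 14 were above 0 and 10 were called higher in cystic duct (5.73% of all genes), with a median of 2.62. Klf1, the erythroid transcription factor, had the largest rise, 3.89 ± 0.66 (limma adjusted p = 0.00924), and the red cell anion exchanger Slc4a1 rose by 3.20. The brightest gene of the list, Tfrc, rose by 1.60, and Hbb-y, also bright, went the other way at -0.30. Among the 8 gallbladders the erythroid median was highest in Sox17+/- replicate 4, where the 41 hepatocyte genes were at 9.29. The erythroid genotype median was 0.76 in ICR and 0.70 in B6, with all 15 above 0 in each, 0 called in limma and 0 at an unadjusted p under 0.05.

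Genes listed for the stellate and sinusoidal cells between hepatocytes moved less. Des on this list is also on the smooth muscle and wall mesenchyme list, so the list does not read those cells alone. Of 10 stellate and sinusoidal genes, 2 were called higher in cystic duct (5.73% of all genes), Reln at 2.78 and Stab2 at 1.42. Their list had a median of 0.31. The Kupffer cell gene Clec4f was 5.67 and 5.07 in gallbladder against 6.21 and 5.58. Of 13 leukocyte genes, 3 were called higher in cystic duct and 0 lower, with a median of 0.5. Smooth muscle and wall mesenchyme genes went the other way, with a median of -0.82. Of 14, 7 were called lower in cystic duct (8.61% of all genes), Myh11 by -2.66 and Acta2 by -1.77. Biliary epithelial genes had a median of -0.16. Of 16, 1 was called higher and 4 lower (5.73% and 8.61% of all genes), the latter with Krt19 at -1.15 and Sox17 at -1.43. Summed over each list, hepatocyte signal was 15.05 to 16.40 in the 8 gallbladders and 17.53 to 18.08 in cystic duct on the log2 scale, and smooth muscle signal was 16.72 to 16.85 and 15.91 to 16.49. Skeletal muscle genes had a median of 7.93 in B6 Sox17+/- replicate 3 and of 4.85 to 5.88 in the other samples. The part of each cell type in the hepatocyte values was not tested. RNA ends were read by the Gapdh control probe sets, whose 3' minus 5' difference was 0.605 and 0.926 in ICR wild type gallbladder, 0.432 and 0.600 in ICR Sox17+/-, 0.921 and 0.307 in cystic duct and 0.001 to 0.299 in B6. On the Actb probe sets it was 0.557 and 1.404, 0.864 and 1.053, 1.025 and 1.193, and 0.917 to 1.204, so that B6 was not lower there. Their part was not tested either.

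**Figure D5:**
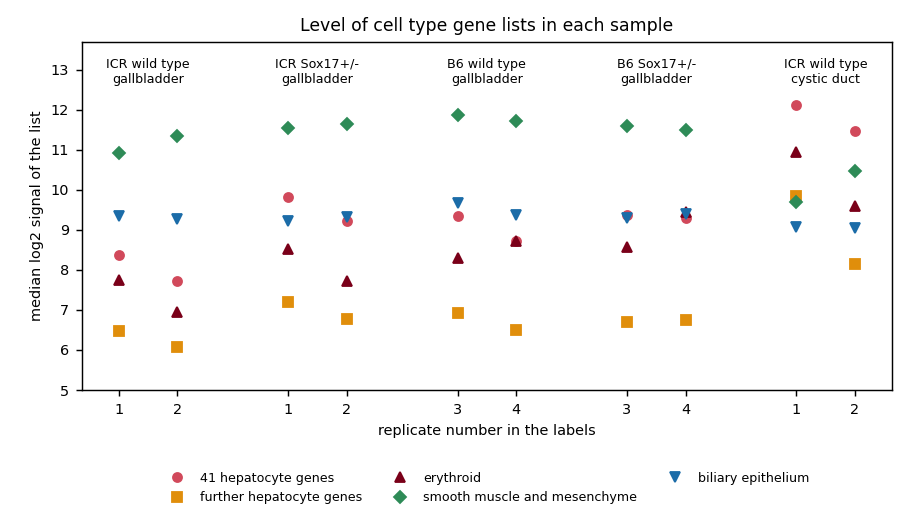
Median log2 signal, by sample, of the 41 hepatocyte genes and of the lists of further hepatocyte, erythroid, biliary epithelial and smooth muscle and mesenchymal genes. Hepatocyte and erythroid points are highest in the cystic duct samples, smooth muscle points are lowest there, and biliary points stay between 9.05 and 9.67.

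Genes outside the lists were ranked by how closely they followed the median of the 41 over the 10 samples. The 10 most alike were A2m, A2ml1, Cyp2d10, Slc36a2, Cldn1, Nrn1, Hsd17b2, Slc27a5, Hsd3b1 and 1300017J02Rik, with r of 0.981 to 0.986. In cystic duct they were 2.12 (A2ml1) to 3.68 (Hsd17b2) above gallbladder. Of the 100 genes with the highest r, down to 0.958, 24 belonged to the 41, 18 to the wider hepatocyte list and 57 to no list used here. These are descriptions over samples in which 2 cystic ducts stand far above the rest.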

How the data were processed

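Per the labels' protocols, Trizol was used for RNA and 10 ug of it gave the biotinylated cRNA for the arrays. The authors deposited 1 value per probe set and sample, on a log2 scale judging by its range; how background and normalization were handled is not given in the sources used here. Of 45101 probe sets, 64 controls were left out, 34945 name 1 gene, 932 several and 9160 none; Entrez IDs of 34741 matched the GRCm38.p6 gene table and 204 did not. Each gene was read by its brightest single-gene probe set, the cross-hybridizing x_at type only where no other existed. Deposited sample medians spread by 0.55, above a tolerance of 0.2, so the samples were quantile normalized. Genes under the 30th percentile of mean signal (4.47) were left out. Stage and genotype tags are swapped in the labels, and the values under them were used.

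Group means over all 10 samples were fitted in limma 3.58.1 (R 4.3.3) with a mean-variance trend, 5 residual degrees of freedom and 7.95 with the prior. P-values were adjusted by Benjamini-Hochberg over 14696 genes, with a threshold of 0.05. The number of arrays limits the precision. The genes, lists and tests were chosen with earlier results of these data known. Genes called are given with their values; in the genotype comparisons the genes named were the ends of each range and those with the highest level, the largest test statistic or the loosest fit to the common profile in each class. The steps were tested on simulated data. Python 3.11.15 served for tables and plots.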

Additional observations from a re-analysis of the deposited data

How the results depend on the processing

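Alternatives were the values as deposited, centring on sample medians, no filter or a 50th percentile filter, averaged or separate probe sets, no trend, array weights, only the groups compared, a replicate block and leaving out each sample, which leaves 1 sample in a group that is then assumed to vary like the others. With array weights 0 genes were called for cystic duct, 5 for genotype over both strains, 1 (Cfi) for genotype in B6 and 8 for strain. With only the groups compared the counts were 0 for cystic duct, 5 for both strains, 3 for ICR and 5 for strain, and with separate probe sets 3 for strain, where 664 of 26443 probe sets were called. Leaving out a sample gave 0 to 5 calls for both strains, 0 to 4 for ICR, 0 to 3 for the strain by genotype difference, 0 to 5 for strain and 36 to 41 for cystic duct. The counts above 0 came from leaving out either cystic duct sample or ICR wild type gallbladder replicate 2; the latter gave 4 for both strains, 4 for ICR, 3 for the strain by genotype difference and 4 for strain. The medians ran from 0.82 to 1.67 for ICR, from -0.08 to 0.45 for B6, from -1.41 to -0.62 for the difference, from 0.49 to 1.11 for strain, and from 3.00 to 4.11 for cystic duct. Over all 41 genes, up to 15 differences changed sign in B6 (without wild type replicate 4; 8 without replicate 3), 4 for strain, 2 over both strains, 2 for the strain by genotype difference and 1 in ICR. Single genes were followed for sign only at a difference of at least 0.5, or 0.2 in ICR, and at any size in cystic duct; among them Afp in ICR ran from -0.10 (without ICR wild type replicate 2) to 0.52, Apob for strain from -0.06 (without the same sample) to 1.07, Cps1 in B6 from -1.54 to 0.25 (without wild type replicate 3) and Cps1 for strain from -1.69 to 0.10 (without wild type replicate 4). The cause of these changes was not tested. Samples share replicate numbers. Over all genes, same-numbered deviations correlated at only 0.38, 0.07, 0.09 and 0.22. Among the 41, replicate 1 exceeded replicate 2 in 32 in ICR wild type, 33 in ICR Sox17+/- and 35 in cystic duct. In B6, replicate 3 exceeded replicate 4 in 39 in wild type and 24 in Sox17+/-. With a replicate block 40 genes were called for cystic duct and 0 in the other comparisons. There 35 in ICR (5.85% of all genes) and 29 over both strains (3.91%) had a limma unadjusted p under 0.05. The main fit gave 27 and 20. For B6, the difference and strain the counts were 4 (1.63%), 20 (1.46%) and 29 (11.2%), against 2, 7 and 17.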
